A study of Drosophila melanogaster with 8 samples.

Results

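The genes described here code for the proteins of the mitochondrial ribosome in the fly heart. They were taken as the genes whose single symbol in the platform annotation starts with mRpL (large subunit) or mRpS (small subunit), with the probe set of the highest mean signal over the 8 arrays standing for each gene. The choice gave 69 genes, 44 of the large and 25 of the small subunit by symbol, of 11982 genes with a single symbol. The symbol need not give the place of every protein in the ribosome. For example, mRpS18A is counted here as small but sits in the large subunit in human ribosomes. The 69 genes came from 71 probe sets, of 18769 probe sets tested.

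The mitochondrial ribosome makes the few proteins that mitochondrial DNA encodes, all of them subunits of the respiratory chain or of ATP synthase. Its own proteins are encoded in the nucleus, made in the cytosol and imported. Some descend from the bacterial ancestor of the organelle and others are found in mitochondria only. The small subunit decodes the messenger, and the large subunit joins the amino acids and lets the new chain out through a tunnel towards the inner membrane.

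Hearts of adult Drosophila melanogaster, all labelled female, were hybridised to Affymetrix GeneChip arrays. GMH5 is a driver line that switches on transgenes in heart muscle cells, and all 4 groups carry it. GMH5 crossed to yw is the control, and GMH5 crossed to FOXO is meant to overexpress the FOXO transcription factor, which acts downstream of insulin signalling. Flies of each cross were aged to 1 week or to 5 weeks at 25C, and each of the 4 groups has 2 arrays. The series title gives the question as whether titered FOXO overexpression keeps cardiac protein quality and function through ageing. The labels do not say whether replicates came from separate pools of flies, so every p-value below measures only the spread between these arrays, which may be technical.

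Several arrays stood apart before any comparison. The heart muscle markers (14 measured of 18 listed) had a median log2 signal between 11.48 and 12.31 on every array. Transcripts made by the female fat body (5 genes, among them the yolk proteins) had medians of 6.75 and 6.59 in the control at 1 week and of 6.18 on FOXO replicate 2 at 1 week, which goes against the label female. On the other 5 arrays their medians lay between 13.03 and 13.44. FOXO replicate 1 at 1 week also carried oocyte transcripts, with a median of 10.81, against at most 5.13 on the other arrays. Of 15 listed names, 12 genes were measured, and osk is also listed as Oskar. Late spermatogenesis transcripts (24 genes measured of 25 listed names, with dj also listed as don juan) differed between arrays too. Their medians were 8.80 and 8.75 in the control at 1 week and 9.73 and 9.56 in FOXO at 5 weeks. Elsewhere they lay between 4.67 and 6.18. Both age comparisons therefore also differ in these transcripts, and their part in the results was not tested. In dissected tissue, fewer cells of a type and less RNA per cell cannot be told apart. The foxo probe set read 10.68 and 10.75 in the control and 10.46 and 10.87 in FOXO at 1 week, and 10.32 and 10.44 against 10.22 and 10.24 at 5 weeks. It was not higher in the FOXO cross at either age, and whether it covers the transgene was not tested.

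The mitochondrial ribosome genes were measured well inside the range of the arrays. Their mean log2 signals ran from 8.29 to 12.08 with a median of 10.54, and all 69 lay above the median of all probe sets (6.16). Signals of different probe sets also depend on their probes, so a higher signal is not read as more transcript, and the results below are differences between arrays. Each probe set was tested with limma on the deposited log2 values, with p-values adjusted over all 18769 probe sets, and the test was passed at an adjusted p under 0.05.

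The arrays of both ages separated over the mitochondrial ribosome genes as a whole. Each gene's signal was taken relative to its own mean over the 8 arrays. The median of these deviations was 0.11 and 0.12 in the control at 1 week and 0.42 and 0.15 in FOXO at 1 week. At 5 weeks it was -0.34 and -0.16 in the control and -0.29 and -0.01 in FOXO. All 4 arrays at 1 week thus lay above all 4 arrays at 5 weeks, with FOXO replicate 1 at 1 week at the top, where 54 of the 69 genes had their highest value, and FOXO replicate 2 at 5 weeks close to 0. The large subunit and the small subunit kept this order of the ages, with medians of 0.48 and 0.42 on FOXO replicate 1 at 1 week and of -0.35 and -0.28 on control replicate 1 at 5 weeks.

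**Figure D1:**
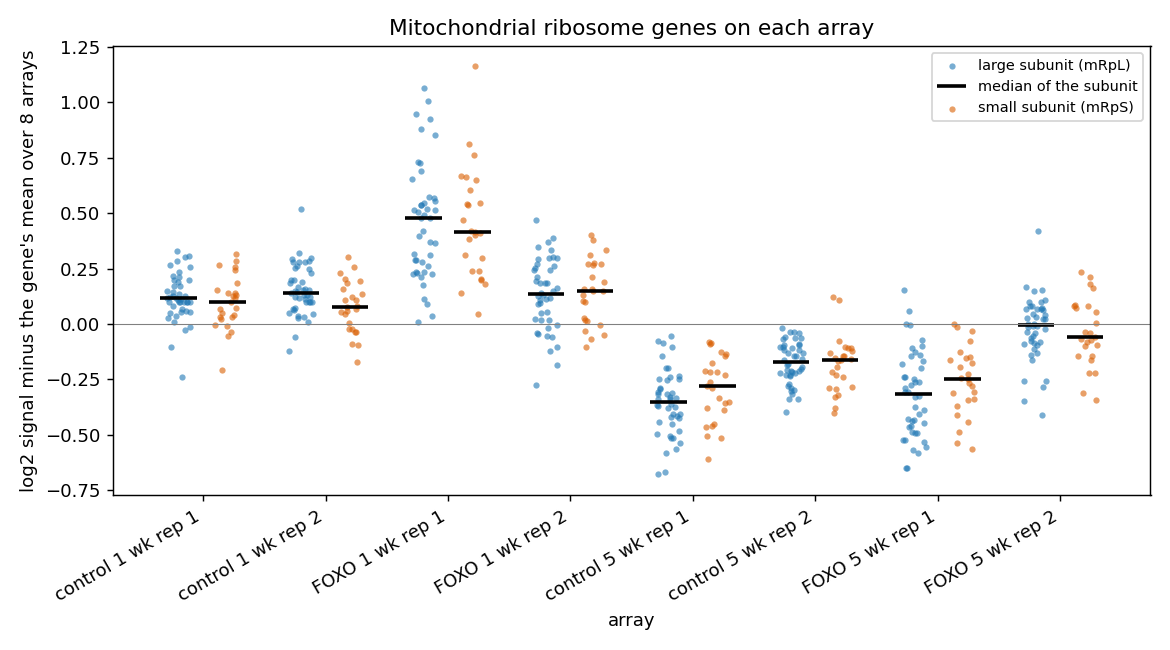
Log2 signal of each mitochondrial ribosome gene minus that gene's mean over the 8 arrays, for every array, with 44 large subunit genes and 25 small subunit genes as points and the median of each subunit as a bar. Both subunits sit above 0 on the 4 arrays at 1 week, highest on FOXO replicate 1, and at or below 0 on the 4 arrays at 5 weeks.

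The first comparison asks how the genes differ with age in the control cross. Of the 69 genes, 68 were lower at 5 weeks than at 1 week, against 42.5% of all probe sets, with a median log2 difference of -0.38, a ratio of 0.768, where the median over all probe sets was 0.05. In 64 of the 69 (92.8%) both arrays at 5 weeks lay below both arrays at 1 week, against 26% of all probe sets, and in none did both lie above, against 34.1%. The differences ran from -0.65 to 0.01. With the array medians set equal, the median over these genes was -0.22.

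No single gene of the 69 passed the test in the control, against 6.91% of all probe sets (4.57% lower), and 21 had an unadjusted p under 0.05 in limma, against 18.7% of all probe sets. That count depends on which arrays estimate the spread. Without either of the FOXO arrays at 1 week 11 genes passed, all lower, against 9.53% of all probe sets. With only the 4 control arrays in the fit 17 passed, all lower, against 10.4% of all probe sets.

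The 5 smallest p-values in the control belonged to 4 large subunit genes and 1 small subunit gene. mRpL10 codes for a protein of the stalk that recruits translation factors. It read 10.18 and 10.01 at 1 week and 9.51 and 9.46 at 5 weeks, a difference of -0.61 ± 0.14 (SE), with an adjusted p of 0.0504. mRpL17, whose bacterial relative lies at the exit of the tunnel, read 10.29 and 10.34 and then 9.57 and 9.79, a difference of -0.63 ± 0.15 with an adjusted p of 0.0515. In both genes the groups were apart by more than the gap between their replicates, and neither passed the test.

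mRpS11, a small subunit protein of the platform in bacteria, read 12.03 and 12.04 at 1 week and 11.40 and 11.46 at 5 weeks (-0.60 ± 0.17, adjusted p = 0.102). mRpL3, which reaches towards the catalytic centre, read 11.01 and 11.27 and then 10.50 and 10.64 (-0.57 ± 0.16, adjusted p = 0.103). mRpL36, a small protein of bacterial descent, read 10.58 and 10.73 and then 9.91 and 10.19 (-0.61 ± 0.18, adjusted p = 0.114). None of these 3 passed the test, and in each the arrays of both ages were fully apart.

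The second comparison asks the same in the FOXO cross. Of the 69 genes 67 were lower at 5 weeks, against 64.2% of all probe sets, with a median log2 difference of -0.45, a ratio of 0.733, where the median over all probe sets was -0.15. The median over these genes was -0.79 with the array medians set equal and -0.29 without FOXO replicate 1 at 5 weeks. Relative to the median of all probe sets, that of these genes was -0.30 in FOXO and -0.43 in the control. Groups did not overlap in 51 of the 69 genes (73.9%), all lower at 5 weeks, against 37.8% of all probe sets that were lower and 19.9% that were higher. The differences ran from -1.10 to 0.10, wider than in the control.

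In the FOXO cross 7 of the 69 genes (10.1%) fell past the test and none rose, against 5.82% of all probe sets that fell and 9.43% that rose. The 7 were mRpL3, mRpL11, mRpL17 and mRpL23 of the large subunit and mRpS17, mRpS25 and mRpS31 of the small subunit. An unadjusted p under 0.05 was found for 28, against 32% of all probe sets. The count is not stable over arrays. It was 38 without FOXO replicate 2 at 1 week, where 18.9% of all probe sets fell, and 6 without FOXO replicate 1 at 1 week, 5 of them among the 7, where 13.4% fell. It was 0 without FOXO replicate 1 at 5 weeks and 2 without replicate 2, where 1.72% and 1.58% of all probe sets fell. It was 1 without either control array at 1 week and 3 without either at 5 weeks, where 2.63% and 3.15% fell. It was also 0 with only the 4 FOXO arrays in the fit, where 0.778% of all probe sets fell. It was 60 with the array medians set equal, where 41.8% of all probe sets fell.

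mRpL17 fell by 0.74 ± 0.15 (SE), from 10.64 and 10.45 at 1 week to 9.78 and 9.83 at 5 weeks (adjusted p = 0.0152). mRpL23, another protein of the tunnel exit in bacteria, fell by 1.10 ± 0.26, from 10.32 and 9.71 to 8.80 and 9.03 (adjusted p = 0.0314). The groups were apart in both, but mRpL23 was much higher on FOXO replicate 1 at 1 week than on replicate 2. mRpL11, at the base of the stalk where elongation factors bind, fell by 0.82 ± 0.19, from 10.49 and 10.34 to 9.37 and 9.82 (adjusted p = 0.0298). mRpL3 fell by 0.62 ± 0.16, from 10.97 and 10.93 to 10.19 and 10.46 (adjusted p = 0.0457). In these 2 genes the wider gap lay between the replicates at 5 weeks.

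mRpS17, which binds the ribosomal RNA early in assembly in bacteria, fell by 0.80 ± 0.17, from 11.27 and 11.11 at 1 week to 10.39 and 10.39 at 5 weeks (adjusted p = 0.0217). mRpS31, a protein found in mitochondrial ribosomes but not in bacterial ones, fell by 0.98 ± 0.25, from 11.44 and 10.68 to 10.04 and 10.14 (adjusted p = 0.0421). mRpS25, also without a bacterial relative, fell by 0.79 ± 0.21, from 11.49 and 11.36 to 10.46 and 10.80 (adjusted p just under the threshold of 0.05). The groups did not overlap in any of the 3. Like mRpL23, mRpS31 was much higher on FOXO replicate 1 at 1 week than on replicate 2. Each of the 7 genes lost its call when some single array was left out, with largest adjusted p-values from 0.0901 for mRpL17 to 0.229 for mRpS25.

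**Figure D2:**
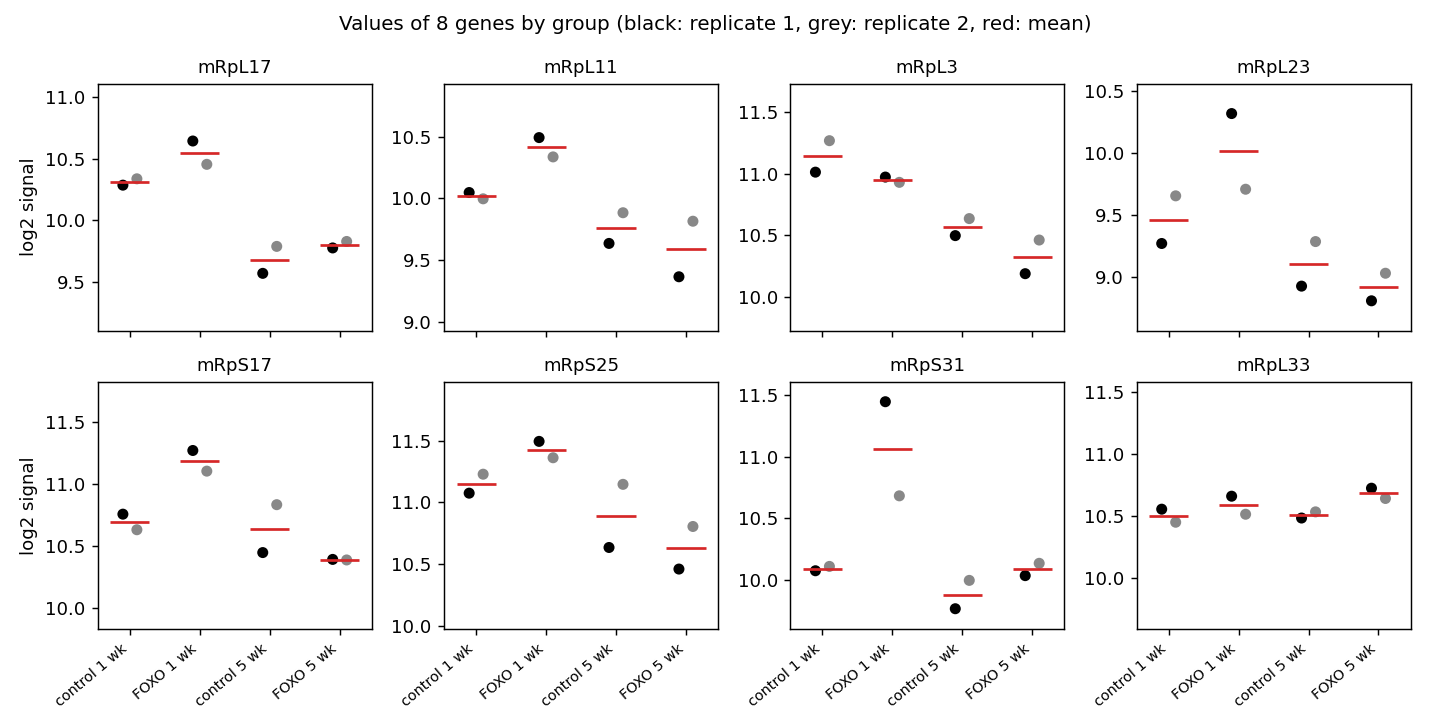
Log2 signal on each array for the 7 genes that fell past the test in the FOXO cross and for mRpL33, chosen after its values were seen as the gene with the smallest range of group means, by group, with replicates as black and grey points and group means as red lines; the vertical axes cover an equal span. mRpL17 and mRpL3 were lower at 5 weeks in both crosses, mRpS17 and mRpS31 differed mostly in FOXO, and mRpL33 stayed between 10.45 and 10.72.

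The third comparison tests whether the age difference itself depended on the cross. No gene of the 69 passed this test, against 9.41% of all probe sets, and 1 had an unadjusted p under 0.05 in limma, against 22.8%. Without FOXO replicate 2 at 1 week 7 passed, all lower, against 16.2% of all probe sets. There were 10 with the array medians set equal, all lower, against 40.9%. The smallest adjusted p was 0.123, for mRpS17. It read 10.76 and 10.63 at 1 week and 10.45 and 10.83 at 5 weeks in the control, where the groups overlapped, a difference of -0.05 ± 0.17 beside its fall of 0.80 in FOXO. The difference between both crosses was -0.75 ± 0.24. With the array medians set equal, the control differences of mRpS17 and mRpS5 were 0.11 and 0.13.

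The next 4 genes in this test were mRpS31, mRpL11, mRpL23 and mRpS5. mRpS31 read 10.08 and 10.11 and then 9.77 and 9.998 in the control, and its age difference was lower in FOXO by -0.77 (adjusted p = 0.253). mRpL11 read 10.05 and 9.996 and then 9.64 and 9.88 in the control (difference between crosses -0.56, adjusted p = 0.269). mRpL23 read 9.27 and 9.65 and then 8.92 and 9.28 in the control (-0.74, adjusted p = 0.280). In each the age difference was smaller in size in the control, and the difference between crosses did not pass the test. mRpS5, whose bacterial relative lines the entry of the messenger, read 11.47 and 11.48 and then 11.44 and 11.44 in the control, and 11.82 and 11.78 and then 11.52 and 11.21 in FOXO (-0.40, adjusted p = 0.302).

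Across the 69 genes, the age difference in the control and the age difference in FOXO, which share no array, had a Pearson correlation of 0.26, and 67 genes were below 0 in both. The difference was lower in FOXO in 43 genes. The median difference between crosses was -0.05 over these genes, where all probe sets had -0.22, so relative to all probe sets it was not lower. Genes are not independent replicates, and these values are descriptions. Over all probe sets the same correlation was -0.40.

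**Figure D3:**
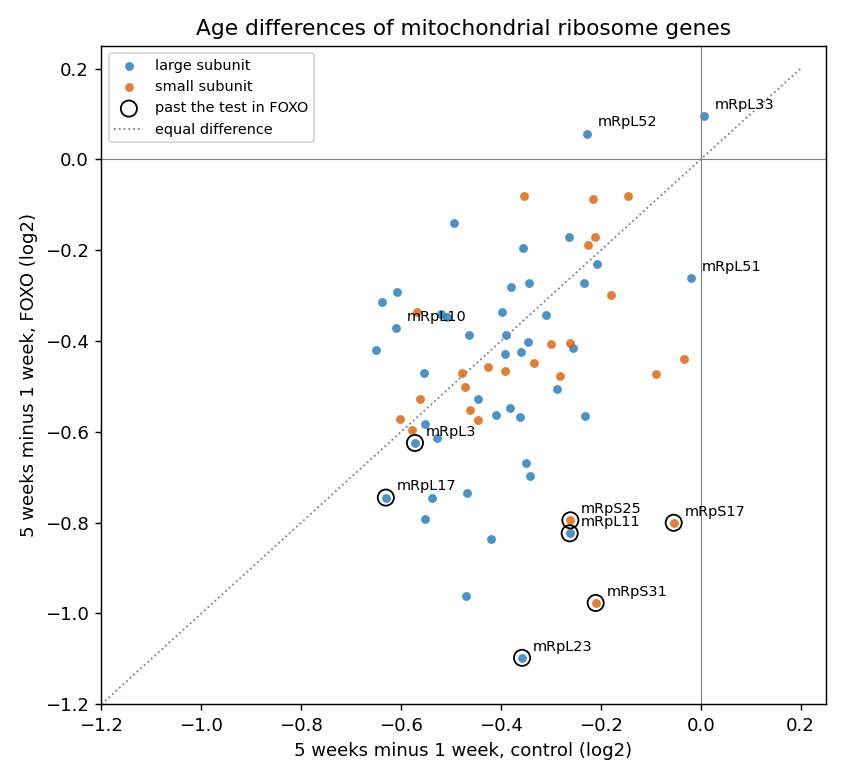
Log2 difference between 5 weeks and 1 week in FOXO (vertical) against that in the control (horizontal) for 69 mitochondrial ribosome genes, coloured by subunit, with rings around the 7 genes past the test in FOXO and a dotted line of equal differences. All but mRpL33 and mRpL52 lie below 0 on both axes, and 43 lie below the dotted line. The median difference between crosses was -0.05 over these genes and -0.22 over all probe sets.

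The fourth comparison takes age over both crosses, with 4 arrays per age and the cross as a second factor. In 37 of the 69 genes (53.6%), 24 of the large and 13 of the small subunit, all 4 arrays at 5 weeks lay below all 4 arrays at 1 week, against 5.53% of all probe sets. None had all 4 above, against 5.81%. With single arrays left out the count ran from 37 to 56, lowest without control replicate 1 at 5 weeks (against 10.8% of all probe sets) and highest without FOXO replicate 2 at 5 weeks (against 6.91%). Without FOXO replicate 1 at 1 week it was 38, against 11.6%. The median log2 difference was -0.43, a ratio of 0.743, and 68 genes were below 0, against 56.9% of all probe sets.

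Only mRpL17 passed the test over both crosses in this fit, lower by -0.69 ± 0.10 (SE) with an adjusted p of 0.0258, against 1.88% of all probe sets (0.821% lower). An unadjusted p under 0.05 was found for 49 genes, against 16.7% of all probe sets. The next were mRpL3 (-0.60, adjusted p = 0.0512), mRpS11 (-0.59, 0.0617), mRpS18A (-0.59, 0.0668) and mRpL4 (-0.57, 0.0679). mRpL4, which lines the tunnel in bacteria, read 10.30 and 10.40 in the control and 10.28 and 10.57 in FOXO at 1 week, and 9.65 and 9.98 against 9.77 and 9.84 at 5 weeks. Its arrays of both ages did not overlap. With single arrays left out the count for the comparison ran from 0 to 3. It was 3 without FOXO replicate 1 at 1 week, against 2.94% of all probe sets that were lower. The count was 0 without any one of the control arrays or of the FOXO arrays at 5 weeks, against 0.0852% to 0.149%. With arrays weighted by their quality it was 27, against 5.98% of all probe sets that were lower.

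By place in the ribosome, every group of genes described had a median below 0 in both crosses. The 5 genes grouped as around the catalytic centre (mRpL2, mRpL3, mRpL4, mRpL16 and mRpL27) had a median age difference of -0.55 in the control and -0.61 in FOXO. This group counts mRpL4, although its bacterial relative lines the tunnel. The 6 genes at the rim of the exit tunnel had medians of -0.38 and -0.56. The 4 genes of the stalks (mRpL1, mRpL10, mRpL11 and mRpL12) had medians of -0.44 and -0.78. These groups are small, and the medians are descriptions without a test.

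The 43 genes with a bacterial relative had median age differences of -0.38 in the control and -0.44 in FOXO, and the 26 without one had -0.37 and -0.46. The large subunit had -0.39 and -0.42, and the small subunit -0.30 and -0.47. In FOXO 4 of 44 large (9.09%) and 3 of 25 small subunit genes (12%) fell past the test, against 5.82% of all probe sets. These medians are descriptions, and no difference between them was tested.

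The S18 family has 3 paralogs in the fly, each thought from mammals to take a different place in the ribosome. mRpS18A, which sits in the large subunit in human ribosomes, read 11.05 and 11.02 in the control and 11.56 and 11.19 in FOXO at 1 week, and 10.41 and 10.51 against 10.65 and 10.92 at 5 weeks. mRpS18B had age differences of -0.46 ± 0.27 in the control and -0.55 ± 0.27 in FOXO, and mRpS18C of -0.30 ± 0.18 and -0.41 ± 0.18. All 3 paralogs had the same sign in both crosses, and none passed the test. The probe set of mRpS18B is of a type whose probes can match more than one transcript.

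A few genes differed little with age, and these were chosen after their values were seen. mRpL33, a small protein of bacterial descent, read 10.55 and 10.45 in the control and 10.66 and 10.51 in FOXO at 1 week, and 10.48 and 10.53 against 10.72 and 10.64 at 5 weeks. Its age differences were 0.01 ± 0.13 in the control and 0.10 ± 0.13 in FOXO. mRpL52, found in mitochondria only, had -0.23 ± 0.13 and 0.06 ± 0.13. mRpL51 had -0.02 ± 0.33 and -0.26 ± 0.33, with 11.36 on FOXO replicate 1 at 1 week against 10.23 on replicate 2. With an error of that size the value of mRpL51 is not shown to differ from the median of the other genes.

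The genes with the highest and lowest probe set signal in each subunit are given next, without reading the signal as a level. Among the brightest, mRpL22, mRpL24 and mRpL49 of the large subunit had age differences of -0.41, -0.38 and -0.55 in the control and of -0.56, -0.28 and -0.58 in FOXO. mRpS7, mRpS9 and mRpS21 of the small subunit had -0.26, -0.57 and -0.35 in the control and -0.40, -0.34 and -0.08 in FOXO. Among the dimmest of the large subunit, mRpL15, mRpL23 and mRpL48 had -0.47, -0.36 and -0.25 in the control and -0.96, -1.10 and -0.42 in FOXO. The values of mRpL23 and mRpL15 in FOXO were the first and the third lowest of all 69. Among the dimmest of the small subunit, mRpS6, mRpS14 and mRpS18C had -0.39, -0.15 and -0.30 in the control and -0.47, -0.08 and -0.41 in FOXO. mRpS14 was 0.017 in the control with the array medians set equal. The genes with the widest range of group means were mRpS31 (1.18), mRpL15 (1.11) and mRpL23 (1.10), each with its highest value on FOXO replicate 1 at 1 week.

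The fifth comparison asks how FOXO differed from the control at 1 week. The median log2 difference was 0.15, where all probe sets had 0.04, and 60 of the 69 genes were higher, against 56% of all probe sets. Groups did not overlap in 25 genes that were higher (36.2%) and 3 that were lower, against 24.4% and 20.5% of all probe sets. No gene passed the test, against 4.33% of all probe sets, and 2 had an unadjusted p under 0.05 in limma, against 15.6%. The sign rests on FOXO replicate 1, the array with oocyte transcripts: without it the median was -0.0057. Without replicate 2 it was 0.29 and 16 genes passed as higher, against 13.2% of all probe sets.

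mRpS31 had the largest difference, 0.97 ± 0.25 (SE), from 10.08 and 10.11 in the control to 11.44 and 10.68 in FOXO (adjusted p = 0.103). mRpS17 had 0.49 ± 0.17, from 10.76 and 10.63 to 11.27 and 11.11 (adjusted p = 0.226). mRpL15, a large subunit protein of bacterial descent, had 0.64 ± 0.27, from 9.50 and 9.62 to 10.59 and 9.82 (adjusted p = 0.323). Both FOXO arrays lay above both control arrays in these 3 genes. mRpS5 (0.33 ± 0.15, adjusted p = 0.353) and mRpL23 (0.55 ± 0.26, adjusted p = 0.362) came next.

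At 5 weeks the median difference between FOXO and the control was 0.12, where all probe sets had -0.16, and 53 of the 69 genes were higher, against 30.4% of all probe sets. This sign depends on the scale of the arrays: with the array medians set equal the median became -0.25, and that of all probe sets moved with it. On that scale 6 of these genes passed the test as lower, against 43.9% of all probe sets. Relative to all probe sets the genes were higher by 0.27. The medians of the FOXO arrays at 5 weeks over all probe sets were 6.40 and 6.43, and those of the other 6 arrays lay between 6.05 and 6.22. Without FOXO replicate 2 at 5 weeks the median was -0.022.

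Groups at 5 weeks did not overlap in 23 genes that were higher (33.3%) and 2 that were lower, against 17.3% and 45.1% of all probe sets. No gene passed the test, against 10.4% of all probe sets, and 0 had an unadjusted p under 0.05 in limma, against 24.4%. mRpS21 read 11.72 and 11.91 in the control and 11.99 and 12.23 in FOXO (0.30 ± 0.15, adjusted p = 0.276). mRpS33 read 11.16 and 11.16 against 11.34 and 11.46 (0.24 ± 0.13, adjusted p = 0.299), and mRpS26 read 10.40 and 10.71 against 10.72 and 11.22 (0.42 ± 0.23, adjusted p = 0.317). FOXO was above the control on every array in these 3 genes. mRpS18A (0.32 ± 0.18) and mRpL32 (0.36 ± 0.20), which in yeast is matured by a protease of the inner membrane, had adjusted p-values of 0.320 and 0.322. With the array medians set equal, mRpS21, mRpS33, mRpS18A and mRpL32 were lower in FOXO. Both FOXO effects were above 0 in 45 of the 69 genes.

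The replicates of a group differed over these genes as a block. The median of replicate 1 minus replicate 2 was -0.02 in the control at 1 week and 0.28 in FOXO at 1 week. At 5 weeks it was -0.14 in the control and -0.27 in FOXO. In FOXO at 1 week 60 of the 69 genes were higher on replicate 1, against 40.5% of all probe sets, and in FOXO at 5 weeks 63 were higher on replicate 2, against 52.7%. The mean log2 signal at the 3' end minus that at the 5' end of 3 array control genes, a measure of RNA integrity and amplification, was 1.23 and 1.14 in the control at 1 week, 1.13 and 0.957 in FOXO at 1 week, 1.46 and 1.09 in the control at 5 weeks, and 1.55 and 1.40 in FOXO at 5 weeks. It was highest on the 3 arrays at 5 weeks other than control replicate 2, and its part in the age differences was not tested.

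**Figure D4:**
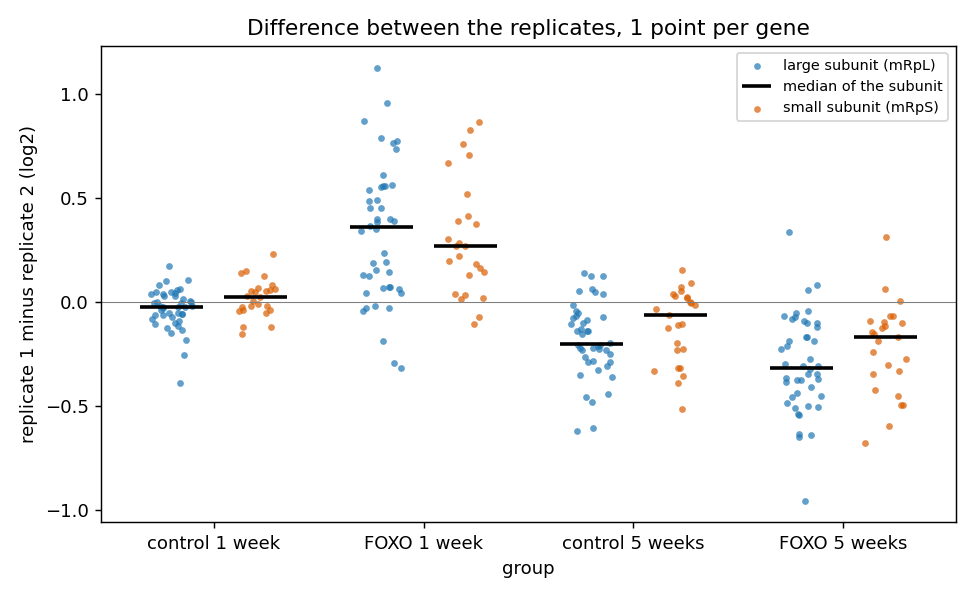
Log2 signal of replicate 1 minus replicate 2 for each of 69 mitochondrial ribosome genes in the 4 groups, coloured by subunit, with the median of each subunit as a bar. The genes centre near 0 in the control at 1 week, lie mostly above 0 in FOXO at 1 week and mostly below 0 in both groups at 5 weeks.

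Related gene groups were described in the same way. The 24 mitochondrial translation factors and tRNA synthetases had median age differences of -0.39 in the control and -0.43 in FOXO. In the control 1 of them fell past the test, against 4.57% of all probe sets. It was TrpRS-m, which charges the mitochondrial tRNA for tryptophan and fell by 1.28 ± 0.20 (adjusted p = 0.00979). In FOXO 5 of the 24 fell, against 5.82% of all probe sets. Among them were mIF3, an initiation factor (by 0.89 ± 0.14, adjusted p = 0.00539), and mRF1, a release factor (by 0.92 ± 0.17, adjusted p = 0.0102). The elongation factor mEFTu1 fell over both crosses, by 0.67 ± 0.11 (adjusted p = 0.0390).

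The 11 genes of mitochondrial DNA maintenance and transcription had medians of -0.27 and -0.48. TFAM, which packs mitochondrial DNA and starts its transcription, read 10.66 and 10.84 at 1 week and 9.76 and 10.22 at 5 weeks in the control (-0.76 ± 0.24, adjusted p = 0.144). In FOXO it fell by 1.39 ± 0.24, from 11.33 and 10.78 to 9.79 and 9.55 (adjusted p = 0.00941). The arrays of both ages were apart in both crosses.

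The 50 nuclear subunits of the respiratory chain and ATP synthase had medians of -0.34 in the control, where all 50 were below 0, and -0.16 in FOXO, close to the median of all probe sets. Of these genes 1 fell in each cross, against 4.57% of all probe sets in the control and 5.82% in FOXO. They were ND-B12 of complex I in the control (by 0.65 ± 0.13, adjusted p = 0.0259) and ATPsynbeta in FOXO (by 0.47 ± 0.12, adjusted p = 0.0466). The 14 genes of protein import had medians of -0.14 and -0.12. In the control 1 of these genes fell past the test, against 4.57% of all probe sets. In FOXO 3 rose and 1 fell, against 9.43% and 5.82%. Tim13 fell by 2.13 ± 0.16 in the control and rose by 3.22 ± 0.16 in FOXO. Its signal was high on the same 4 arrays as the late spermatogenesis transcripts. Tim17b1 rose by 2.17 ± 0.19 in FOXO (adjusted p = 0.000254). The 26 proteins of the cytosolic ribosome had medians of 0.07 and -0.02, with differences between -0.13 and 0.12, and none passed the test in either cross (0 with an unadjusted p under 0.05 in limma in each).

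**Figure D5:**
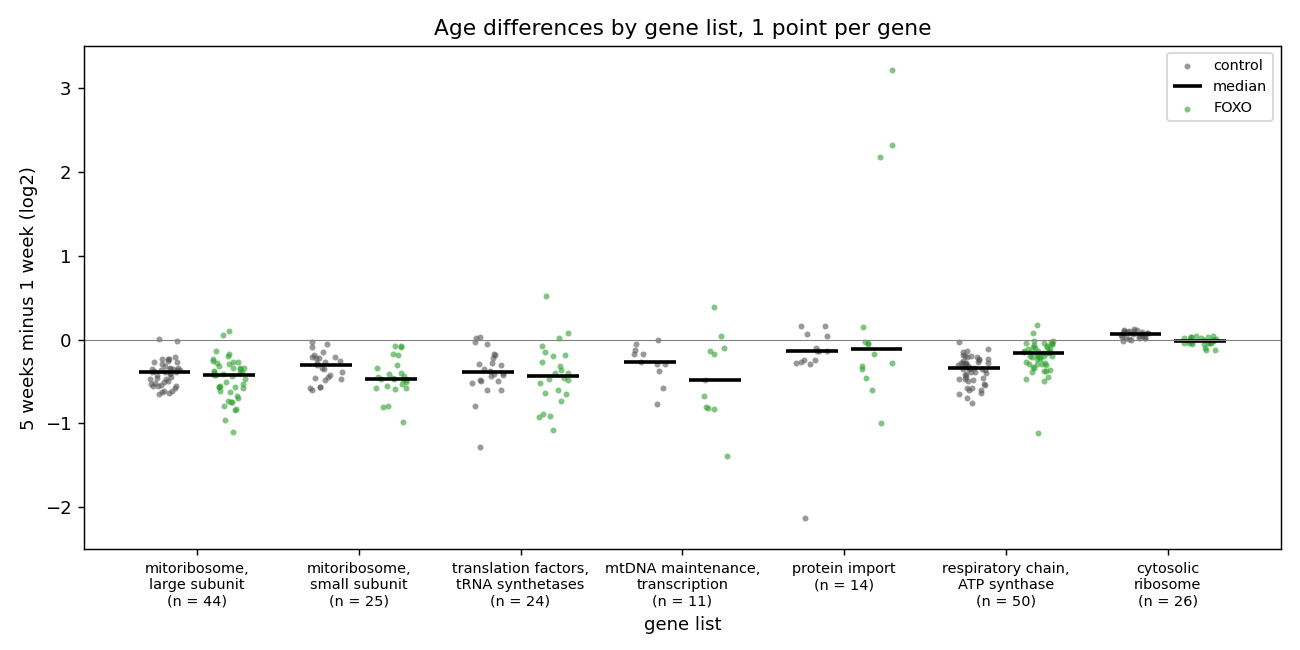
Log2 difference between 5 weeks and 1 week for every gene of 7 lists, in the control (grey) and in FOXO (green), with the median of each list as a bar. The mitochondrial ribosome, translation factor and DNA maintenance lists have medians between -0.27 and -0.48. The respiratory chain and ATP synthase list has a median of -0.34 in the control, inside that range, and of -0.16 in FOXO. The cytosolic ribosome, with signals near the top of the scale, lies near 0.

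The heart muscle markers themselves differed with age. Their median age difference was -0.30 in the control and -0.39 in FOXO. Of the 14 markers 2 fell past the test in each cross, against 4.57% and 5.82% of all probe sets. The log2 of their summed signal was between 16.13 and 16.18 in the control and between 15.94 and 16.06 in FOXO at 1 week, and between 15.89 and 15.91 and between 15.71 and 15.72 at 5 weeks. These shifts are of the size of those of the mitochondrial ribosome genes, and their part in the result was not tested. The 11 gut markers moved the other way, with median age differences of 0.62 in the control and 0.54 in FOXO. In the control 5 of the gut markers rose past the test, where 6.91% of all probe sets passed in either direction. In FOXO 5 of the gut markers rose, against 9.43%. The log2 of their summed signal was 10.22 on both arrays of the control and between 9.49 and 9.91 in FOXO at 1 week, and between 11.25 and 11.33 and between 11.12 and 11.39 at 5 weeks. The male accessory gland markers (11 genes measured of 12 listed names, with SP also listed as Acp70A) had medians of -0.99 and -0.26. Of these, 3 fell in the control, against 4.57% of all probe sets, and 2 in FOXO, against 5.82%. The part of gut and accessory gland transcripts in the age differences was not tested either. The markers of pericardial nephrocytes, hemocytes and fat body had medians between 0.03 and 0.20, but single markers moved more, in both directions. The hemocyte markers ran from -0.88 to 0.77 in the control and from -1.12 to 0.66 in FOXO. Of these 7 markers 1 fell past the test in FOXO, against 5.82% of all probe sets. The 8 fat body markers ran up to 2.17 in the control. There 1 of them rose past the test, where 6.91% of all probe sets passed in either direction. A pair of mitochondrial ribosome genes named otherwise, tko and bonsai, are not among the 69. tko (the fly S12 protein) had age differences of -0.24 ± 0.15 in the control and -0.33 ± 0.15 in FOXO, and bonsai (the fly S15 protein) had -0.44 ± 0.20 and -0.36 ± 0.20. Neither passed the test.

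For 2 of the 69 genes a second probe set was on the array. That of mRpS11 had age differences of -0.57 in the control and -0.65 in FOXO beside -0.60 and -0.57 for the one used. That of mRpL47 had -0.52 and -0.53 beside -0.39 and -0.39. The sign was the same for both probe sets in both crosses.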

How the data were processed

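Drosophila Genome 2 arrays gave 1 value per probe set. The deposited log2 values were taken as the authors left them. The sources used here do not give the summarisation or the normalization. limma is named, with no version, in the submitters' processing notes. That the scale is log2 follows from the range of the values, 2.14 to 14.5. Of 18952 probe sets, 183 array controls were left out. Genes were named from the platform annotation; 13647 probe sets had 1 symbol, 402 several and 4720 none, and 2 that join an mRp symbol with another gene were not used.

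limma 3.58.1 (lmFit and eBayes, R 4.3.3) was fitted over all 8 arrays with 1 mean per group, which leaves 4 residual degrees of freedom, or with cross and age as additive factors for age over both crosses. Benjamini-Hochberg adjustment ran over all 18769 probe sets. The procedure was tested on simulated data. The members, the lists and the places in the ribosome were chosen with earlier results of these data known. Genes were named by rule: those past the test, otherwise the 5 smallest p-values per comparison, the 3 brightest and 3 dimmest and the 3 widest in range of each subunit, and the paralogs. From the related lists, only some of the genes with the 2 smallest p-values per list and age comparison are named. Normalization, array scale, a filter on dim probe sets, the variance model, array weights, the arrays fitted, the probe set rule, a replicate block and single arrays left out were tried as alternatives. Precision is limited by how few arrays there are.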

Additional observations from a re-analysis of the deposited data

How the results depend on the processing

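The age direction of the median over the 69 genes was kept under every alternative run in both crosses, and the FOXO direction was not. With the array medians set equal, the median was -0.22 for age in the control, -0.79 for age in FOXO and -0.25 for FOXO against the control at 5 weeks, while that of all probe sets moved by the same amounts. The number of these genes past the test, all lower, is given next with the share of all probe sets that were lower in brackets. With the array medians set equal it was 6 for FOXO at 5 weeks (43.9%), 60 for age in FOXO (41.8%), 10 for the change of the FOXO effect with age (40.9%) and 0 for age over both crosses (0.245%). For age in the control it was 2 after quantile normalization (4.32%), 1 without the dimmest 40% of probe sets (6.09%), 2 with a mean over the probe sets of a gene (4.90%), 18 with array weights (10.5%) and 17 with only the compared arrays (10.4%). For age in FOXO it was 0 with array weights (1.74%) and 0 with only the compared arrays (0.778%). For age over both crosses it was 3 without the dimmest probe sets (1.94%), 4 with a trended and robust variance (1.05%), 27 with array weights (5.98%) and 0 with a replicate block (0.495%). The cause of these changes was not tested.

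With single arrays left out, the number past the test ran from 0 to 16 for FOXO at 1 week, from 0 to 0 at 5 weeks, from 0 to 11 for age in the control, from 0 to 38 for age in FOXO, from 0 to 7 for the change of the FOXO effect and from 0 to 3 for age over both crosses. The medians ran from -0.0057 to 0.29 for FOXO at 1 week, from -0.022 to 0.24 at 5 weeks, from -0.45 to -0.30 for age in the control and from -0.63 to -0.29 for age in FOXO. Where a group was left with 1 array, that array was taken to vary like the other groups. The shares of all probe sets beside the highest counts stand with each comparison above.

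Some single genes changed sign. With the array medians set equal, FOXO against control at 5 weeks was -0.0077 for mRpL32, -0.041 for mRpS18A, -0.064 for mRpS21 and -0.12 for mRpS33, and age in the control was 0.13 for mRpS5, 0.017 for mRpS14 and 0.11 for mRpS17. Age in FOXO was 0.0038 for mRpS14 after quantile normalization. With single arrays left out, age in FOXO ran from -0.48 to 0.085 for mRpL32 and from -0.17 to 0.0097 for mRpS14, above 0 without FOXO replicate 1 at 1 week, and from -0.20 to 0.040 for mRpS21, above 0 without FOXO replicate 1 at 5 weeks. Age in the control was 0.0090 for mRpS17 without control replicate 1 at 1 week and 0.14 without control replicate 1 at 5 weeks.

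The replicate numbers were not taken to pair the arrays, since the correlations of their deviations between groups were not all over 0.1. All were above 0, from 0.0133 between the crosses at 1 week to 0.332 between the crosses at 5 weeks. At 5 weeks 53 of the 69 genes in the control and 63 in FOXO were higher on replicate 2, against 46.1% and 52.7% of all probe sets. Whether replicates of both crosses at 5 weeks were handled together was not tested. With the replicate number as a block, 6 genes passed for age in FOXO in place of 7, and 0 for age over both crosses in place of 1. Without the block 5.82% and 0.821% of all probe sets were lower past the test. With the block it was 0.495% for age over both crosses. The share with the block for age in FOXO is not given here, so the 6 genes are not set against one.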
